A study of Mus musculus with 6 samples.

Results

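The miRNAs described here are the mature products of the miR-193 and miR-365 hairpins, 5 names of the 1224 in the deposited expression table: mmu-miR-193a-3p, mmu-miR-193a-5p, mmu-miR-193b-3p, mmu-miR-365-3p and mmu-miR-365-1-5p. They were chosen by name, and each was listed because it had at least 1 read in the 6 libraries. The choice was made with earlier results of the same libraries known, among them a lower level of miR-193a-3p after METTL3 siRNA, so the values of that miRNA are a description and no independent support. Mouse names are given below without the prefix mmu. The table held 6 other names of the miR-193 or miR-365 families or with a member's seed, 2 of them mouse names (miR-193b-5p and miR-365-2-5p), and these are described beside the members.

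Small RNA was sequenced from GC-1spg, a mouse testis cell line that serves as a model of spermatogonia. In 3 libraries the cells had been transfected with an siRNA against METTL3, the enzyme that writes N6-methyladenosine into RNA (si-METTL3), and in 3 with a control siRNA (si-NC). All were collected 48 h later, and no other allele or agent is given. The labels print the same siRNA sequence for both groups and also call si-NC untreated, so the groups are those of the sample titles. Mettl3 mRNA is not measured by counts of mature miRNAs, and the knockdown could not be checked. Whether replicate libraries stem from different cultures is not stated, so the p-values reflect a spread that may be technical only.

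A miRNA hairpin is usually cut first by Drosha in the nucleus and then by Dicer in the cytoplasm into a duplex. Argonaute usually keeps an arm of the duplex (5p or 3p), and the other is degraded. The kept arm recognises target mRNAs mainly through its seed, bases 2 to 8. The mouse genome carries 2 copies of a miR-193 hairpin beside a miR-365 hairpin. In human cells miR-193a-3p and miR-193b-3p are known to repress mRNAs such as those of urokinase, MCL1 and cyclin D1, and miR-365-3p that of interleukin 6. In the mouse the cluster of miR-193b and miR-365 is known for its high level in brown fat.

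On the build GRCm38 the pair Mir193a (chr11:79711969-79712034) and Mir365-2 (chr11:79726400-79726511) lies on chromosome 11 with 14365 bases between the hairpins. The pair Mir193b (chr16:13449523-13449601) and Mir365-1 (chr16:13453840-13453926) lies on chromosome 16 with 4238 bases between them. All 4 hairpins are on the plus strand. In GENCODE M21 the chromosome 11 hairpins overlapped no other gene, and those on chromosome 16 lay inside Gm15738, an antisense RNA on the minus strand, in none of its exons.

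The 7 mature sequences are shown because the seeds decide which names can share targets, and because the arms outside miR-365-3p tell the copies apart. They are RefSeq's (build GRCm38.p6), each equal to the deposited sequence, 5′ to 3′, with the seed in capitals.
miR-193a-3p: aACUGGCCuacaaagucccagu
miR-193b-3p: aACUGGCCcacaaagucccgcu
miR-365-3p: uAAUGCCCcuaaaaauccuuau
miR-193a-5p: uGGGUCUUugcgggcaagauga
miR-193b-5p: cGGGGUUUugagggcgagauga
miR-365-2-5p: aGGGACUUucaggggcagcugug
miR-365-1-5p: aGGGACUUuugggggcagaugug

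The miR-193a-3p and miR-193b-3p arms share their seed and 19 of 22 bases. Counted from the 5′ end of miR-193a-3p, they differ by U9C, A20G and G21C. The miR-193a-5p and miR-193b-5p arms do not share a seed (U5G and C6U lie in it). The miR-365-3p arm is the same from both copies, so its reads cannot be assigned to a chromosome. The miR-365-2-5p and miR-365-1-5p arms share a seed and differ, counted from the 5′ end of miR-365-2-5p, by C10U, A11G and C19A. The hairpins are shown with the annotated arms in capitals.
Mir193a: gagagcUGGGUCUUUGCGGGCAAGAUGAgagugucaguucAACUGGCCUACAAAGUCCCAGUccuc
Mir193b: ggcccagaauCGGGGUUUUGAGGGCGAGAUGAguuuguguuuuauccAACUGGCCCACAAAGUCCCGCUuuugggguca
Mir365-2: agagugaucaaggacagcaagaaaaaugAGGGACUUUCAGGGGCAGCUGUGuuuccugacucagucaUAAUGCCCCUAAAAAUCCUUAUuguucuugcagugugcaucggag
Mir365-1: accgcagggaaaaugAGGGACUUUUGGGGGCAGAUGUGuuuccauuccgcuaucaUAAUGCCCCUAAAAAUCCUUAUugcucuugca

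The si-NC libraries held 3998058 to 4052812 reads and the si-METTL3 libraries 4473804 to 6132668. Every si-METTL3 library was thus deeper than every si-NC library, and si-METTL3 1 was the deepest. Names known from insect miRNAs, 8 of them summed, had 1 read in si-NC 1 and 200 to 807 reads in the other libraries, so si-NC 1 stood apart in them. Of the marker lists used to check the cells, those of undifferentiated spermatogonia summed to 151200 to 163900 TPM over all libraries (7 of 8 listed), most of it miR-21a-5p. This miRNA had a log2 fold of 0.01 (edgeR, adjusted p 0.922), so the sum hides the other markers. Of the 7, 2 were called higher and 2 lower, together 57.1%, where 29.3% of all tested names were called. These shares are not matched for level, and nothing particular to the markers is read from them. No marker of pluripotent cells was listed (0 of 5). Markers of meiotic male germ cells (3 of 3 listed) summed to 413 to 422 TPM in si-NC and 455 to 493 in si-METTL3, and nearly all of this was miR-34c-5p, which rose (log2 fold 0.25, adjusted p 5.1e-04). Markers of fibroblasts and other mesenchymal cells (5 of 5 listed) summed to 5763 to 5961 TPM in si-NC and 7166 to 7268 in si-METTL3. Of these, miR-199a-5p rose (log2 fold 0.87), miR-143-3p fell (log2 fold -0.23, adjusted p 2.2e-04) and the other 3 did not pass. Markers of muscle (3 of 4 listed, without miR-208b-3p) summed to 92.0 to 95.9 TPM in si-NC and 47.6 to 63.9 in si-METTL3. Most of this was miR-206-3p, which fell (log2 fold -0.75, adjusted p 7.5e-07, edgeR), and miR-1a-3p did not pass (-0.40, adjusted p 0.507). Markers of blood cells (5 of 5 listed) summed to 58.5 to 71.4 and 58.6 to 64.4 TPM, and miR-122-5p of liver had 2.00 to 3.95 and 0.894 to 3.59 TPM. Their part in the results below was not tested. Deposited TPM values are counts scaled to the library total, with no length in them, and were used for levels because mature miRNAs are of nearly the same length. Bias between sequences in ligation, a step of library making, was not corrected. Levels of different miRNAs are therefore compared as shares of reads. In bulk libraries, fewer cells with a miRNA and less of it per cell cannot be told apart.

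miR-365-3p was by far the most abundant of the names, followed at a distance by the miR-193 3p arms. In the order of the library numbers, which holds for all values below, its deposited TPM was 566, 513 and 493 in the 3 si-NC libraries, against 577, 496 and 510 in the 3 si-METTL3 libraries. The groups overlapped, and si-NC 1 and si-METTL3 1 were the highest of their groups. It ranked 78th of the 679 mouse names by mean TPM, ahead of miR-193a-3p (191st), miR-193b-3p (204th), miR-193a-5p (241st) and miR-365-1-5p (627th). In si-NC miR-193a-3p (45.5 ± 1.44 TPM, SD, n = 3) and miR-193b-3p (38.4 ± 2.87) were the nearest neighbours in this order, with ranges that did not overlap. In si-METTL3 these neighbours (30.0 ± 2.62 and 29.9 ± 1.64) did not differ beyond their spread, and both lay above miR-193a-5p in every library.

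**Figure D1:**
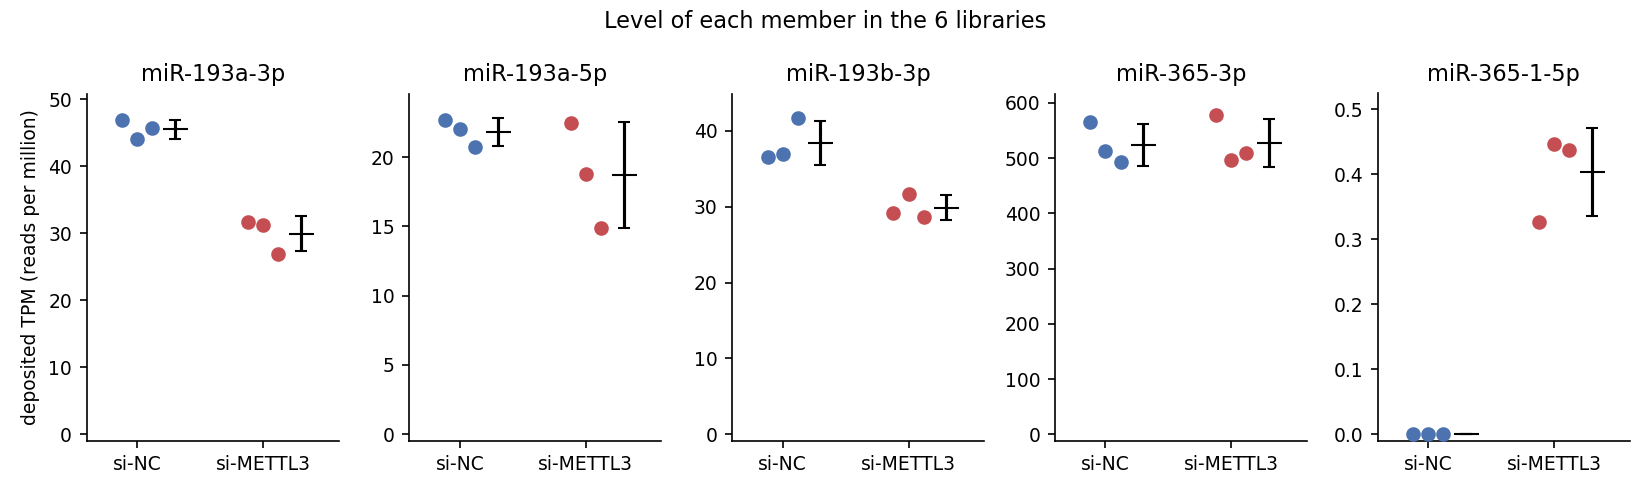
Deposited TPM (y axis, own scale from 0 per panel) of the 5 members in si-NC (blue) and si-METTL3 (red). Points are libraries, and the black bar and whiskers are the mean and SD of 3. The points of miR-193a-3p, miR-193b-3p and miR-365-1-5p do not overlap between groups, and those of miR-193a-5p and miR-365-3p do. In TMM-scaled CPM 41.2% of all tested names do not overlap. miR-365-1-5p was not tested and has 0 reads in each si-NC library and 2 in each si-METTL3 library.

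The 2 arms with the shared miR-193 seed were both lower in si-METTL3, and 1 of them passed the test. miR-193a-3p had 190, 176 and 183 reads (46.9, 44.0 and 45.7 TPM) in the 3 si-NC libraries, against 194, 140 and 123 reads (31.6, 31.3 and 26.9 TPM) in the 3 si-METTL3 libraries. All si-METTL3 libraries lay below all si-NC libraries. With TMM scaling its level went from 44.5 ± 1.80 to 30.6 ± 2.43 CPM (SD, n = 3), a fold of 0.690 and a log2 change of -0.54 ± 0.11 (SE), which passed the quasi-likelihood test of edgeR (adjusted p 7.1e-04, Benjamini-Hochberg over 622 names). It lay at percentile 4.98 of all tested log2 folds. When si-METTL3 1 was compared with only si-NC 2 and 3, a set taken from an earlier analysis of invertebrate names and not derived again here, the log2 fold was -0.46 ± 0.18 and the call was lost (adjusted p 0.054). That fit has 1 si-METTL3 library, which is assumed to vary like si-NC.

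miR-193b-3p, the arm from chromosome 16, had 36.5, 37.0 and 41.7 TPM in the 3 si-NC libraries, against 29.2, 31.7 and 28.7 in the 3 si-METTL3 libraries. Again the groups did not overlap. Its log2 fold was -0.30 ± 0.12 (SE, 95% interval -0.54 to -0.05), and its adjusted p of 0.061 missed the threshold of 0.05. The side of the threshold depended on the scaling and on the names kept for the test. With TMM scaling and mouse names only, the adjusted p was 0.043 (edgeR). Without a scaling factor the log2 fold was -0.36 with an adjusted p of 0.024, and 7 of 19 alternatives passed in all. The log2 fold was below 0 in each of the 19.

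Summed over every listed name with the seed ACUGGCC, which adds miR-193-y, the level was 84.6, 81.8 and 89.7 TPM in the 3 si-NC libraries, against 62.1, 64.2 and 57.8 in the 3 si-METTL3 libraries. The groups did not overlap, with a fold of 0.719 between the means (permutation test, exact and two-sided, p 0.1, as low as 3 libraries a group can give, adjusted p 0.2 over 2 seeds). Nearly all of this sum is miR-193a-3p and miR-193b-3p, so it restates their values and is no separate result. Among all tested names, 41.2% did not overlap in TMM-scaled CPM. For the seed AAUGCCC of miR-365-3p and miR-365-y the means were 530 ± 39.0 and 534 ± 42.4 TPM (SD, n = 3, exact permutation p 0.8). The 2 groups overlapped for this seed.

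miR-365-3p and the 5p arm of Mir193a did not pass. For miR-365-3p the log2 change was 0.08 ± 0.06 (SE, 95% interval -0.05 to 0.20, adjusted p 0.375, edgeR). In the comparison of si-METTL3 1 with only si-NC 2 and 3 it was 0.25 (adjusted p 0.018), with the spread again borrowed from si-NC. miR-193a-5p had 22.7, 22.0 and 20.7 TPM in the 3 si-NC libraries, against 22.5, 18.8 and 14.9 in the 3 si-METTL3 libraries, so that si-METTL3 1 lay within the si-NC range and the other 2 below it. Its log2 fold was -0.15 ± 0.16 (95% interval -0.49 to 0.19, adjusted p 0.5585).

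Of the 5 members, 4 passed the filter on low counts, and 1 of these 4 was called, in the lower direction. Over all 622 tested names 29.3% were called, and 11.6% were called lower. With TMM scaling 110 names were called higher and 72 lower, and with library totals alone 83 higher and 102 lower. The groups did not overlap in 2 of the 4 in TMM-scaled CPM, against 41.2% of all tested names. With 4 names tested, nothing particular to the members can be read from these counts. The median log2 fold of all tested names was 0.01 with TMM scaling and -0.06 with library totals alone.

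**Figure D2:**
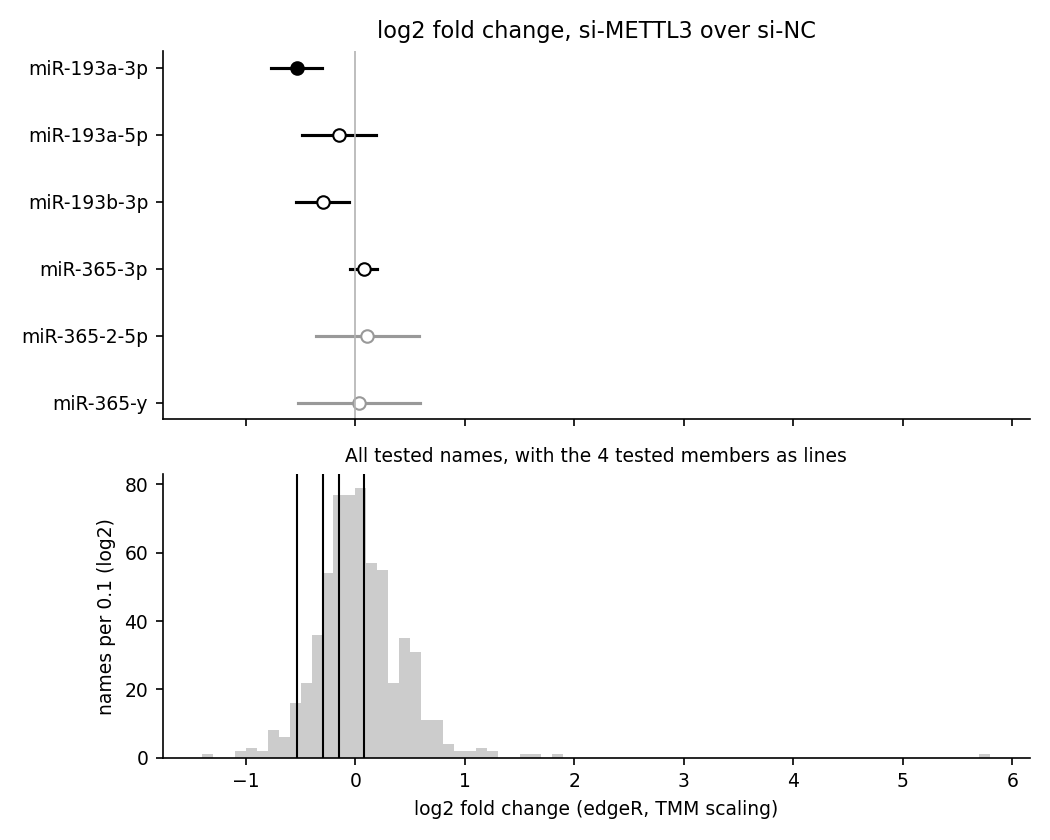
Top, log2 fold change of si-METTL3 over si-NC with its 95% interval for the 4 tested members (black) and for miR-365-2-5p and miR-365-y (grey). The filled point, miR-193a-3p, passed an adjusted p of 0.05. Bottom, the log2 folds of all 622 tested names as a histogram, in which the lines of the 4 tested members run from -0.54 to 0.08.

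Ratios between arms of the same library need no scaling between libraries. The ratio of miR-193a-3p to miR-193a-5p reads, the 2 arms of the same hairpin, was 2.07, 2.00 and 2.20 in the 3 si-NC libraries, against 1.41, 1.67 and 1.81 in the 3 si-METTL3 libraries. The 5p arm thus made up 32.4% ± 1.08 (SD, n = 3) of the Mir193a reads in si-NC and 38.2% ± 3.05 in si-METTL3. The lowest share (31.2%, si-NC 3) had an exact Clopper-Pearson 95% interval of 25.7% to 37.1%, for counting error only. The highest (41.6%, si-METTL3 1) had one of 36.2% to 47.1%. These intervals overlapped slightly, which does not show that counting error covers the gap, and the 2 shares were not compared by a test. The log2 ratio differed by -0.37 between the groups, which did not overlap (exact two-sided permutation p 0.1, the smallest possible, adjusted p 0.1 over 4 ratios).

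The same ratio was tested over 103 pairs of mouse 5p and 3p names from the same hairpin, a test added after the data were seen. Some names, such as miR-125b-5p, are shared between pairs, so the pairs are not all separate. The Mir193a difference was -0.37 ± 0.18 (SE, adjusted p 0.1075, limma) and did not pass, where 27.2% of the pairs did. For miR-365-3p over miR-365-2-5p the difference was -0.02 ± 0.30 (adjusted p 0.964, limma). Reads of miR-365-3p can come from both copies, so this value, called arm balance below, is not that of a single hairpin.

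The other 3 ratios did not overlap either, each lower in si-METTL3 with an exact permutation p of 0.1. The share of such ratios among other miRNAs was not computed, and 41.2% of single names did not overlap. The ratios are not separate observations, since miR-193a-3p is the numerator of 3 of the 4. miR-193a-3p over miR-193b-3p, the arms with the same seed from chromosomes 11 and 16, went from 1.19 ± 0.09 to 1.00 ± 0.07 (SD, n = 3). miR-193a-3p over miR-365-3p went from 0.0871 ± 0.0050 to 0.0569 ± 0.0055. miR-193b-3p over miR-365-3p went from 0.0738 ± 0.0101 to 0.0569 ± 0.0067. In this last ratio the groups only just failed to overlap, with 0.0646 in si-NC 1 and 0.0640 in si-METTL3 2. No p below 0.1 is possible with this number of libraries.

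**Figure D3:**
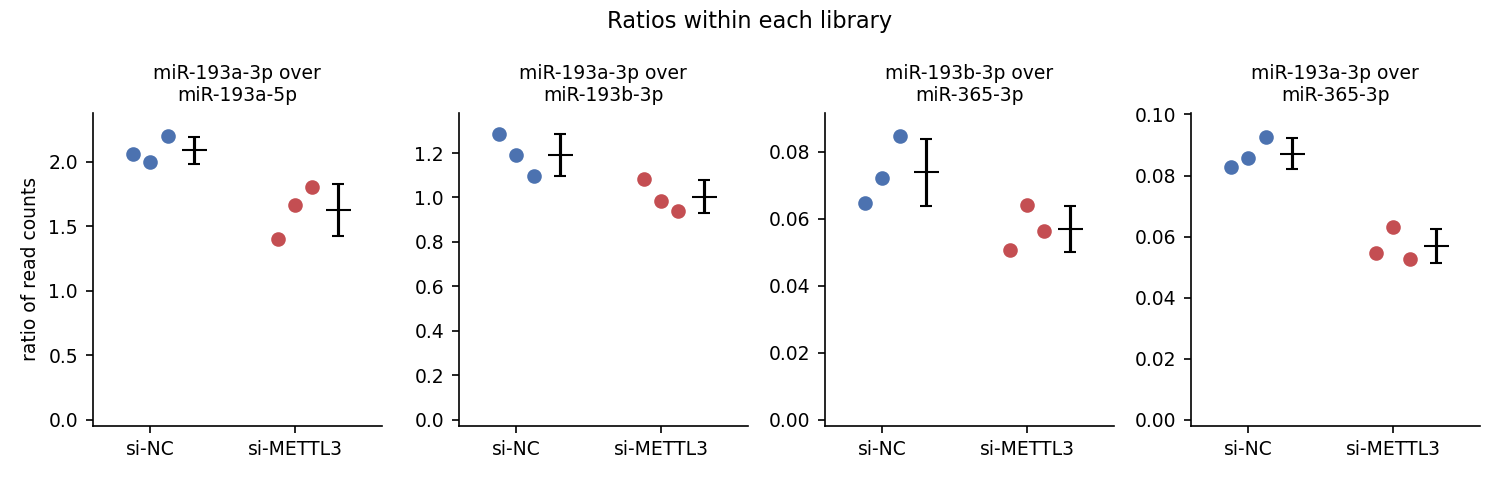
Ratios of read counts within each library (y axis, own scale from 0 per panel) in si-NC (blue) and si-METTL3 (red). Points are libraries, and the black bar and whiskers are the mean and SD of 3. In all 4 panels the red points lie below the blue ones.

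The 2 clusters differed in the reads of their 5p arms far more than in the miR-193 3p arms. Over the 6 libraries miR-193a-3p had 1006 reads and miR-193b-3p 915, a ratio of 1.10. Their 5p partners had 553 reads (miR-193a-5p) and 9 reads (miR-193b-5p), a ratio of 61.4. The 3p to 5p ratio of reads was therefore 1.82 for Mir193a and 102 for Mir193b, with ligation bias not corrected. The 5p arms of the miR-365 hairpins had 209 reads (miR-365-2-5p, chromosome 11) and 6 reads (miR-365-1-5p, chromosome 16). Of these 215 reads 97.2% came from chromosome 11 (Clopper-Pearson 95% interval 94.0% to 99.0%, for counting error only, since reads are not independent molecules). The share was 100% in each si-NC library and 93.5% to 95.9% in the si-METTL3 libraries. This gap is made by 2 miR-365-1-5p reads in each si-METTL3 library. The intervals of the libraries overlapped, with lower ends of 86.8% to 90.0% in si-NC and 78.6% to 86.0% in si-METTL3. Their upper ends were 100% in si-NC and 99.2% to 99.5% in si-METTL3.

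**Figure D4:**
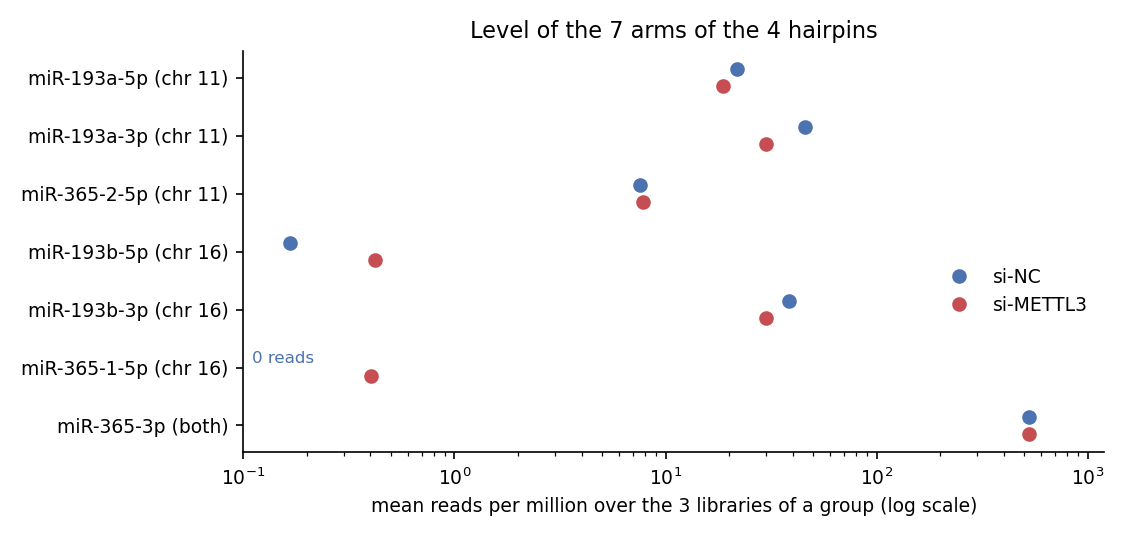
Mean level of the 7 arms (x axis, TPM, log scale) in si-NC (blue) and si-METTL3 (red), with the chromosome of each arm. The 5p arms from chromosome 16 (miR-193b-5p and miR-365-1-5p) lie below 1 TPM, and miR-365-1-5p had no read in si-NC.

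miR-365-1-5p, the least abundant member, had 0 reads in each si-NC library and 2 reads in each si-METTL3 library. It did not pass the filter on low counts. A count of 0 over the 12054407 si-NC reads allows up to 0.249 TPM (3 counts over the group), against 0.395 TPM over the si-METTL3 group as counted. An exact 95% interval on 6 against 0 reads, for counting error only, puts the ratio of the levels at 0.935 or more, so it does not set the groups apart, and the name was listed only through these 6 reads. With no filter its adjusted p was 0.202 (edgeR, 1224 names). In the authors' deposited table the same counts stand with a log2 fold of 5.34, since a count of 0 is written there as a TPM of 0.01. It is the only one of the 11 names in the authors' deposited table of 50 differing miRNAs, with their p of 0.041 and FDR of 0.193. In the authors' deposited table miR-193a-3p stood with a log2 fold of -0.60, a p of 5.6e-06 and an FDR of 9.5e-05, but outside the table of differing miRNAs, whose smallest log2 fold was 1.01 in size.

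The other mouse names had few reads or no difference that passed. miR-365-2-5p had 7.40, 8.75 and 6.49 TPM in the 3 si-NC libraries, against 7.66, 9.39 and 6.35 in the 3 si-METTL3 libraries, with overlapping groups. The log2 change was 0.11 ± 0.23 (edgeR, adjusted p 0.779). miR-193b-5p had 2 reads in si-NC and 7 in si-METTL3, a ratio of 2.78 after library totals with an exact 95% interval of 0.529 to 27.4 from counting error.

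The 4 names without a mouse prefix match these hairpins except at their last 2 bases. They are shown because they are further forms of the same arms, with the bases that do not match the hairpin in capitals.
miR-193-y: aacuggccuacaaagucccaAA
miR-193-x: ugggucuuugcgggcaagaugaUU
miR-365-y: uaaugccccuaaaaauccuuaCC
miR-365-x: gagggacuuucaggggcagcugAU
miR-193-y and miR-365-y begin at the same base as miR-193a-3p and miR-365-3p and keep their seeds. miR-365-x begins 1 base before miR-365-2-5p, which shifts its seed. miR-365-y had 173 reads, against 14407 of miR-365-3p, and a log2 change of 0.03 ± 0.27 (edgeR, adjusted p 0.959). The other 3 did not pass the filter. miR-193-y had 17 reads in si-NC and 23 in si-METTL3 (ratio 1.08, exact 95% interval 0.5495 to 2.14), and miR-365-x had 5 and 16 (ratio 2.54, 0.890 to 8.87). miR-193-x had 3 and 5. With miR-193-y, miR-193-x and miR-365-y added to their mouse names, the log2 fold of miR-193a-3p was -0.51 (adjusted p 8.3e-04).

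**Figure D5:**
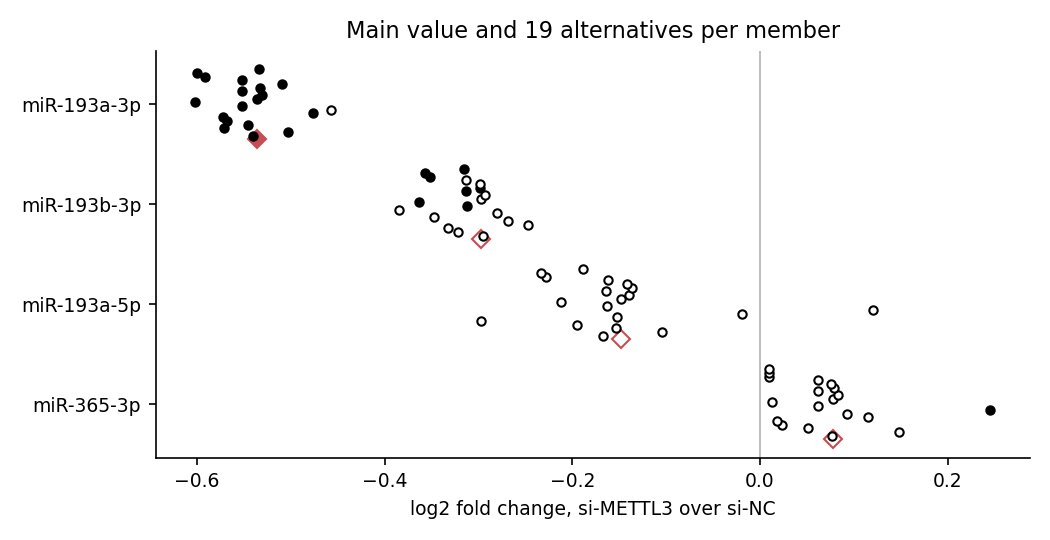
Log2 fold change of the 4 tested members (x axis) in the main fit (red diamond) and in 19 alternatives each (circles). Filled symbols passed an adjusted p of 0.05. miR-193a-3p ranges from -0.60 to -0.46, with 1 alternative not passing, and miR-193b-3p from -0.38 to -0.25, with 7 passing.

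The names most like each member were taken by Pearson's r of log2(CPM + 1) over the 6 libraries among 409 other tested mouse names. The libraries share group and depth, so r is a description. Nearest to miR-193a-3p were miR-181b-5p (r 0.99), miR-375-3p (0.99) and miR-326-3p (0.99). Nearest to miR-193b-3p were miR-25-3p (0.97), miR-200a-3p (0.97) and miR-30c-2-3p (0.94), while its r with miR-193a-3p was 0.90. miR-193a-5p was nearest to miR-6944-3p (0.93), miR-582-5p (0.88) and miR-218-1-3p (0.86), and its r with miR-193a-3p was 0.63. miR-365-3p was nearest to miR-467d-5p (0.94), miR-3084-3p (0.85) and miR-1983 (0.84). Its r was -0.29 with miR-193a-3p and -0.65 with miR-193b-3p.

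Other miRNAs with related roles moved in both directions. Of 22 miRNAs reported in brown fat or adipocyte formation, 19 could be tested, of which 8 rose and 3 fell, with a median log2 fold of 0.10. These 11 are 57.9% of the 19, where 29.3% of all tested names were called, and nothing particular to the list is read from this. With library totals alone 6 rose and 3 fell, with a median of 0.03. Of the 4 most abundant, miR-27b-3p (log2 fold 0.33 ± 0.04 SE, adjusted p 7.1e-07), miR-26a-5p (0.29 ± 0.04, 2.0e-06) and miR-182-5p (0.18 ± 0.04, 6.9e-04) rose, and miR-30c-5p had -0.03 ± 0.04 (adjusted p 0.684). Of 17 miRNAs reported to repress cyclin D1, without the members, 15 could be tested, of which 5 rose and 3 fell, with a median of 0.03. These 8 are 53.3% of the 15, against the same 29.3%, and nothing particular to this list is read from that either. The 29.3% is not matched for level: among names with at least 10 CPM in 3 libraries, 181 of 413 were called. With library totals alone 3 of the cyclin D1 list rose and 4 fell, with a median of -0.04. With TMM scaling let-7b-5p (0.12 ± 0.04, adjusted p 0.035) and miR-15b-5p (0.29 ± 0.04, 1.2e-05) rose. The log2 change was -0.09 ± 0.04 (adjusted p 0.124) for miR-16-5p and 0.02 ± 0.05 (0.869) for miR-20a-5p, all by edgeR. With library totals alone let-7b-5p no longer passed (0.06, adjusted p 0.361), miR-16-5p did (-0.15, adjusted p 0.0034) and miR-20a-5p was at -0.05.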

How the data were processed

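Small RNA of 6 GC-1spg libraries, 3 si-METTL3 and 3 si-NC, grouped by sample titles, was analysed. The build mm10 and the tools Bowtie2, RSEM, fastp and StringTie are named, per the submitters' processing notes, without roles or versions; the naming of miRNAs and the authors' test were not given in these sources. Per the file headers, the deposited tables give a count of reads per miRNA name, and a TPM, which equals the count over a library total within 5e-05 with 0 written as 0.01. The deposited log2 fold change is, for the 11 names used, that of the authors' group means of TPM, and the deposited p-value and FDR are the authors'. Some lines of the table were emptied and are not analysed here.

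Counts of all names were tested with edgeR 4.0.16 (quasi-likelihood, two-sided, filterByExpr, TMM, robust dispersions, library totals recovered from the TPM, Benjamini-Hochberg over 622 names, threshold 0.05). Arm ratios were tested over pairs of 5p and 3p names with limma 3.58.1 on log2 of counts plus 0.5. Each arm of a pair averaged 20 reads or more. Single ratios and sums were tested with exact permutation tests. The planned ratio of miR-365-3p to miR-365-1-5p was not computed, since the latter had no reads in si-NC. Replicates differed beyond sampling noise (chi-square over degrees of freedom 8.35 to 13.2). A library floor of 3 reads equals 0.489 to 0.75 TPM. Both models were also run on simulated counts with known changes. Names in the text are the members, names with their number or seed, the 4 most abundant of each list and the 3 of highest r. The members and lists were chosen with earlier results of these data known. DESeq2 1.42.0, other scalings and filters, limma on log2(TPM + 1), a block and left-out libraries were alternatives.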

Additional observations from a re-analysis of the deposited data

Results flagged for a closer look

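miR-365-1-5p stands here because it lies outside the test of counts and had reads in si-METTL3 but not in si-NC. It had 6 reads over the 3 si-METTL3 libraries and 0 over the 3 si-NC libraries, below the filter on low counts. Each si-METTL3 library held 2 reads, fewer than the 3 counts taken as the floor of a library, and the cause was not tested.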

How the results depend on the processing

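The log2 fold of miR-193a-3p was below 0 in all 19 alternatives (-0.60 to -0.46) and passed in 18. The exception was the comparison of si-METTL3 1 with only si-NC 2 and 3 (-0.46), where the lone si-METTL3 library is assumed to vary like si-NC and 118 names were called in place of 182. In that fit miR-365-3p passed (0.25), miR-193a-5p reversed (0.12), miR-365-y was at -0.12, the arm balance of miR-365-3p over miR-365-2-5p was 0.18 and 16 arm pairs were called in place of 28. The alternatives that raised the members called from 1 to 2, by miR-193b-3p, were DESeq2 size factors (-0.31), library totals (-0.36), at least 10 CPM in 3 libraries (-0.31), mouse names only (-0.30) and limma on log2 TPM with a pseudocount of 1 (-0.35), of 0.5 (-0.36) or of 5 (-0.32). Limma called 107 names with a pseudocount of 1 and 106 with 0.5. miR-365-y was at -0.033 with library totals and at -0.0090, -0.0098 and -0.0055 with limma. The cause was not tested.

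Without each library in turn, the log2 fold ranged from -0.57 to -0.48 for miR-193a-3p, -0.35 to -0.25 for miR-193b-3p, -0.30 to -0.02 for miR-193a-5p, 0.02 to 0.15 for miR-365-3p, -0.18 to 0.28 for miR-365-y and -0.036 to 0.22 for miR-365-2-5p. The summed miR-365-3p seed ranged from -0.056 to 0.071 and the arm balance of miR-365-3p over miR-365-2-5p from -0.15 to 0.16. With the replicate number as a block, the log2 change of miR-193a-3p was -0.54 (adjusted p 0.0017), 176 names were called, and no call of a member changed. Deviations of libraries with the same number correlated at -0.34, -0.07 and -0.27, and those of libraries with different numbers at -0.15 to 0.34. The numbers were therefore not taken as pairs, and the blocked permutation was not run. Under 3 reads per library, as for miR-365-1-5p, depth limits what can be detected.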
